A study of Mus musculus with 58 samples.

Results

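Tumour necrosis factor receptor-associated factors (TRAFs) and the ubiquitin-editing proteins that restrain NF-κB were followed in mouse microglia. The set held 8 genes chosen by symbol, with earlier results of these data known. They are the adaptors Traf1, Traf2, Traf3 and Traf6, the TRAF-binding protein Tank, and the brakes Tnfaip3 (A20), Tnip1 (ABIN-1) and Cyld. Shares of members called, set beside those over all genes, are therefore a description and no independent support. Each of the 8 symbols matched 1 of the 47643 Ensembl genes in the count tables. The series has 58 samples, of which 34 libraries of microglia were used, and the 24 cortex samples were not analysed here. The libraries form 8 groups in 4 comparisons. Primary microglia from wild-type mice were exposed to fibrils of full-length tau at 2 µg/ml over 24 h (tau, n = 4) or to vehicle (n = 4). Microglia were pulled with CD11b beads from enzymatically digested brains of male PS19 mice aged 10.98 months, labelled P301S+ for their mutant human tau transgene (n = 4), and of nontransgenic males (NTG, n = 4), of which 2 were 10.98 and 2 were 11.18 months old. IkbkbCA cultures (Cx3cr1 CreERT2/+, IkbkbCA F/F, n = 5) expressed a constitutively active IKKβ from Rosa26, and IkbkbWT cultures (n = 5) carried the same IkbkbCA F/F allele with Cx3cr1 +/+ and no Cre. Ikbkb-/- cultures (Cx3cr1 CreERT2/+, Ikbkb F/F, n = 4) had lost IKKβ, and Ikbkb+/+ cultures (n = 4) were Ikbkb F/F with Cx3cr1 +/+. All 4 of these genotypes received 4-hydroxytamoxifen as mixed glia, so only the Cre carriers also lost 1 copy of Cx3cr1, and that loss cannot be told apart from the IKKβ genotype. F/F marks alleles that Cre recombines, and the Cx3cr1 promoter drives Cre in microglia and in other macrophages. The cultures came from pups, and nothing in the sources used here says which libraries share a litter.

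TRAFs dock on the tails of tumour necrosis factor, CD40, interleukin-1 and Toll-like receptors and assemble ubiquitin chains that bring the IKK complex to its activating kinases. IKKβ then marks IκB for destruction and frees NF-κB, and among the genes NF-κB switches on are the ones that end the signal. A20 and CYLD take apart or remodel the ubiquitin chains, ABIN-1 binds the chains and brings A20 to them, TANK binds TRAFs and the kinases TBK1 and IKKε, and TRAF3 holds the non-canonical pathway in check by letting NIK be degraded.

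κB sites are the DNA elements that NF-κB dimers bind, and promoter sequence is shown first because the members differed in it. RefSeq promoter windows of GRCm38.p6, from 250 bases before to 50 bases after each annotated start site, were given for 8 of the 8 members, 12 windows in all. Both strands were searched for the 10-base κB consensus, which is GGG, A or G, any base, A or T, C or T, C or T, and CC. It was found in 6 of these 12 windows, which belong to 5 members, and in 4.51% of the 32851 windows in the table. The Tank matches at -72 and -127, in overlapping windows, are the same site, which is thus counted in both. A looser pattern of GGGNNNNNCC, which includes every consensus match, was in 50.8% of all windows. It was in windows of 7 of the 8 members, Traf1 being the exception, and Tnfaip3 and Tank have several windows. The matches are a description of letters and no measure of binding. The stretches with the consensus are printed 5′ to 3′ on the strand of the gene, with the matches in capitals and positions counted from the start site at 0. The Tnfaip3 stretch is chr10:19015411-19015535, minus strand, from -125 to -1. The Tnip1 stretch is chr11:54962941-54963040, minus strand, and the Traf3 stretch is chr12:111166270-111166369, plus strand, both from -100 to -1. The Tank stretch is chr2:61592977-61593076, plus strand, from -120 to -21 before the third of its 4 annotated starts in genomic order. The Cyld stretch is chr8:88696873-88696972, plus strand, from -155 to -56.
Tnfaip3: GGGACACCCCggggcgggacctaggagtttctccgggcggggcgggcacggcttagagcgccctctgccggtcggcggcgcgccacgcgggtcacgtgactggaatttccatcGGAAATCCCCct
Tnip1: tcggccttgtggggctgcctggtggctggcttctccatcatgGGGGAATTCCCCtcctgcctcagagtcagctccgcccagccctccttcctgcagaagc
Traf3: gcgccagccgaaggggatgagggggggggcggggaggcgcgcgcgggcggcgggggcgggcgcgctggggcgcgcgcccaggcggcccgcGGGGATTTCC
Tank: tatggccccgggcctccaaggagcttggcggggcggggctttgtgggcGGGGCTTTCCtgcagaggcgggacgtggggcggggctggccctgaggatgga
Cyld: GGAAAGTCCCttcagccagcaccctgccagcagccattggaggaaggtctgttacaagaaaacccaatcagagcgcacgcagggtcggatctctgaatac
Tnfaip3 held 2 separate matches, and the one next to its start site, read on the opposite strand, has the same 10 letters as the Traf3 match, GGGGATTTCC. In Tnip1 the match is a palindrome of 12 bases, GGGGAATTCCCC, which fits the consensus on both strands. The windows of Traf1, Traf2 and Traf6, the other start of Tnfaip3 and the first 2 starts of Tank held no consensus match.

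**Figure D1:**
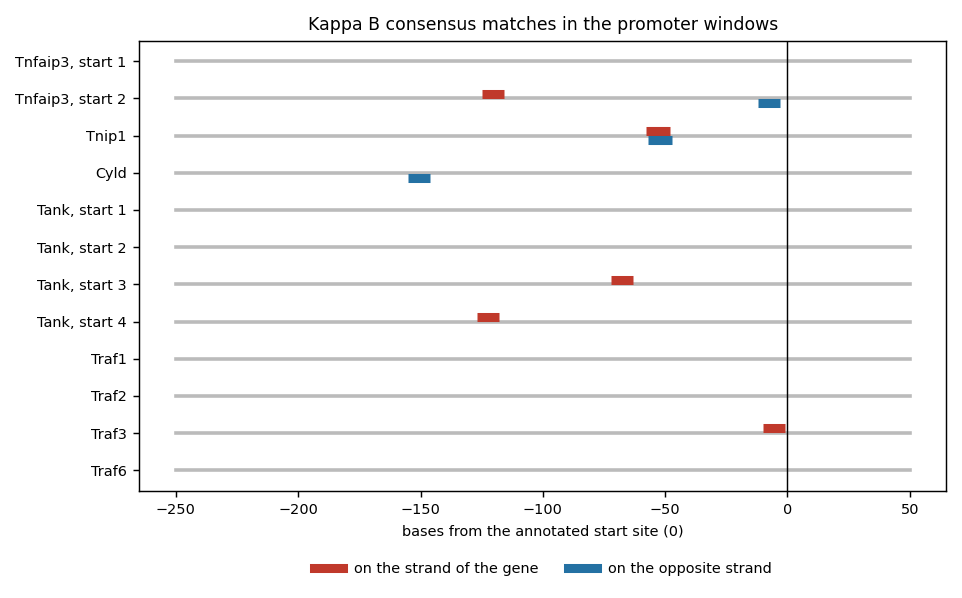
Positions of κB consensus matches in the 12 promoter windows of the 8 members. The x axis gives bases from the annotated start site, starts of 1 gene are numbered in genomic order, and red and blue bars are matches on the strand of the gene and on the opposite strand; Traf1, Traf2 and Traf6 have none.

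Read depth was 1672052 to 8349128 counts per library, and 3 counts, taken as the limit of detection, were worth 0.340 to 1.71 CPM. CPM are counts scaled to library size, after TMM normalization over all 34 libraries. All 10 microglia markers were detected in each group. Ikbkb in Ikbkb-/- cultures was 24.6, 24.7, 18.7 and 22.4 CPM against 53.3, 45.6, 53.9 and 55.2 CPM in Ikbkb+/+ (log2 fold change -1.20 ± 0.12 SE, edgeR false discovery rate (FDR) = 6.34e-07). In IkbkbCA cultures its log2 fold change was 0.17 ± 0.12 (FDR = 0.405), and whether the 3′ reads reach the deleted exons or the Rosa26 transgene is not given in the sources used here. By RT-qPCR the paper reports raised Ikbkb mRNA in IkbkbCA cultures and its deletion in Ikbkb-/- cultures. Cx3cr1 was lower in both Cre carriers, by a log2 fold change of -0.56 ± 0.09 (FDR = 0.00153) in IkbkbCA and -1.16 ± 0.12 (FDR = 1.63e-06) in Ikbkb-/-. The share of uniquely mapped reads outside genes was 16.3% to 22.2% with tau and 23.3% to 29.1% with vehicle, and 12.4% to 14% in IkbkbCA and 15.9% to 18.7% in IkbkbWT, so in these comparisons that share cannot be told apart from the group. PS19 replicate 1, labelled male, had 177 CPM of Xist, against at most 31.1 CPM in the other 7 adult libraries. Neutrophil genes were present in the adult libraries, with the 6 granulocyte markers summing to 424 to 2559 CPM in PS19 and 1524 to 2123 CPM in NTG.

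The number of members called at the threshold differed between the comparisons, and in PS19 none was called. A gene was called higher or lower at a Benjamini-Hochberg FDR under 0.05 in edgeR's quasi-likelihood test, with the FDR taken over all genes that passed the filter on low counts. With tau fibrils 4 of the 7 members tested were called higher and 0 lower, where 14.5% of all genes tested were called higher and 15.4% lower. Of the 4 called, Tnfaip3 passed that filter through its tau libraries. The median log2 fold change was 0.79 over these 7 members and -0.01 over all genes. In IkbkbCA 5 of 8 members were called higher and 1 lower, against 7.31% and 7.16% of all genes, with a median of 1.06 over the members and -0.05 over all genes. In Ikbkb-/- 1 of 7 members was called lower and 0 higher, against 6.96% and 7.64% of all genes, and the median was -0.05. That is 14.3% of the members tested, near the share over all genes, of which 1641 of 11242 were called in either direction. In PS19 0 of 8 members were called by edgeR, likewise near the share of all genes, 0.0707% higher and 0% lower. Of those 8, only Traf3 had an unadjusted p under 0.05, and DESeq2 and limma-voom also called 0. The paper, however, lists Traf3 as upregulated in PS19 microglia at FDR under 0.05. Libraries of the 2 groups did not overlap in CPM for 3 of the 7 members tested with tau, against 28.2% of all genes tested, for 7 of 8 in IkbkbCA against 12.4%, for 1 of 7 in Ikbkb-/- against 18%, and for 0 of 8 in PS19 against 6.2%. Over all genes the split of calls depended on scaling, with 1506 higher and 1602 lower with tau and 1057 and 2254 under total-count scaling, and 855 and 837 in IkbkbCA and 753 and 1252 under it. These are bulk libraries, so fewer cells with a transcript and less of it per cell cannot be told apart.

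Markers of other brain cells moved with the fibrils. The 10 microglia markers summed to 10899 to 12641 CPM with tau and 5072 to 6782 CPM with vehicle, with 5 of 10 called higher and 0 lower. The sum of the 8 astrocyte markers was 381 to 461 CPM with tau and 670 to 760 CPM with vehicle, with 5 of 8 called lower. For the 7 oligodendrocyte markers it was 268 to 326 against 466 to 560 CPM, with 2 of the 5 tested called lower, and for the 8 neuron markers 172 to 223 against 323 to 431 CPM, with 5 of the 7 tested called lower. None of these 4 pairs of ranges overlapped, so for the members called with tau these shifts cannot be told apart from the fibrils.

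Libraries of the IkbkbCA comparison also differed in measures other than genotype. The neuron markers summed to 61.7 to 87.7 CPM in 3 IkbkbCA and 34.2 to 108 CPM in 3 IkbkbWT libraries, replicates 1 to 3 of each, and to 296 to 320 CPM and 297 to 301.3 CPM in the other 2 of each group. In the same order the fibroblast and vessel markers summed to 1.67 to 3.93 CPM and 2.24 to 3.78 CPM, and to 24.5 to 28.7 CPM and 18 to 22.4 CPM. The IkbkbWT libraries also split by sex, with Ddx3y, on the Y chromosome, at 143 to 177 CPM and Xist at 1.70 to 2.82 CPM in replicates 1 to 3, and Ddx3y at 1.15 to 2.04 CPM and Xist at 469 to 485 CPM in replicates 4 and 5. All IkbkbCA libraries had both, with 49.3 to 85.9 CPM of Ddx3y and 150 to 279 CPM of Xist. With a term for neuron markers over 200 CPM, a setting chosen after seeing the data, or with Ddx3y as a covariate, 5 members were again called higher and 1 lower. Tnfaip3, Tnip1, Tank and Traf3 were called higher both within the 6 libraries under 200 CPM and within the 4 over it, and Cyld only in the 4. Traf2 had a log2 fold change of 0.74 (FDR = 0.0575) in the 6 and 0.34 (FDR = 0.250) in the 4, and Traf6 of -0.53 (FDR = 0.116) and -0.46 (FDR = 0.0662). Within each part the IkbkbWT libraries were of 1 sex and the IkbkbCA libraries mixed. The 4 libraries were only 2 against 2, so these fits cannot separate genotype from sex.

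**Figure D2:**
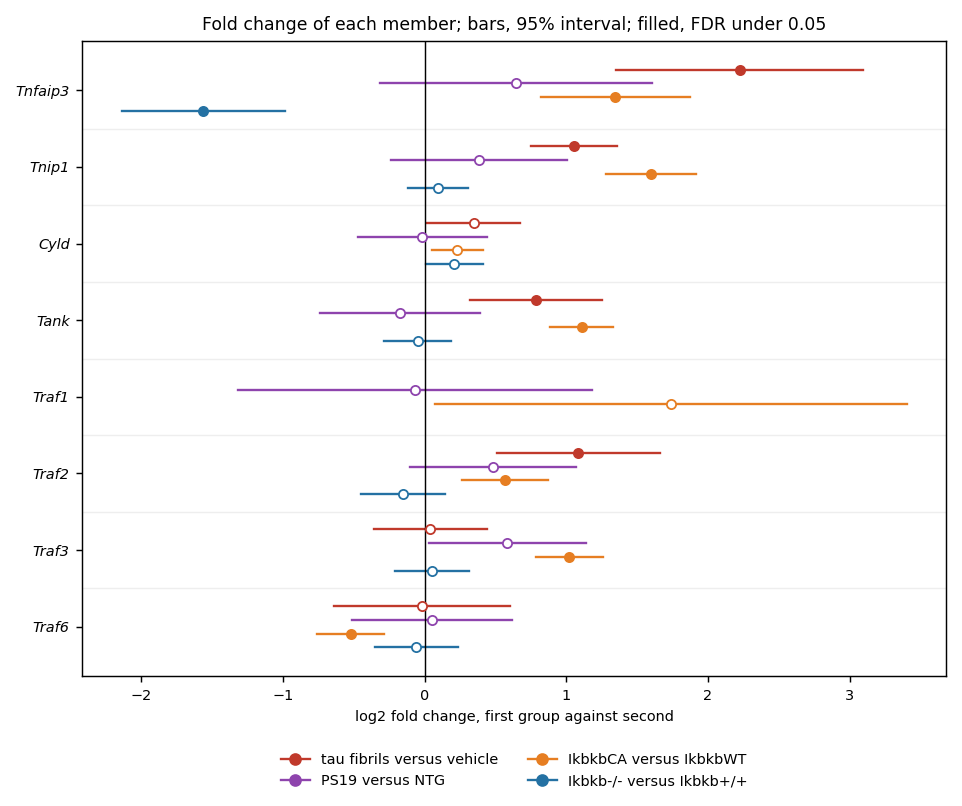
Log2 fold changes of the 8 members (x axis) in the 4 comparisons, with 95% intervals as bars and FDR under 0.05 as filled points. Tnfaip3 is called in 3 comparisons, higher with tau fibrils and in IkbkbCA and lower in Ikbkb-/-; Traf1 is shown only where it passed the filter on low counts.

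Tnfaip3 (chr10:19000910-19015657, minus strand), which encodes the chain-editing enzyme A20, moved in both directions with IKKβ. With tau fibrils it was at 9.27, 9.89, 14.6 and 19.8 CPM, against 5.98, 1.97, 0.871 and 4.06 CPM with vehicle. All tau libraries lay above all vehicle libraries, although the vehicle libraries held only 2 to 11 counts. The gene passed the filter on low counts through the tau libraries, with 17 to 41 counts. The rise was 4.66-fold (log2 fold change 2.22 ± 0.42 SE, FDR = 0.000202). In IkbkbCA cultures the values were 27.2, 32.1, 67.4, 42.0 and 32.4 CPM, against 15.6, 14.7, 11.7, 15.6 and 20.4 CPM in IkbkbWT. The groups were apart, with replicate 3 the highest, and the fold was 2.54 (log2 1.35 ± 0.24, FDR = 0.00289). In Ikbkb-/- cultures the values were 9.82, 12.6, 6.30 and 5.68 CPM, against 39.5, 25.1, 23.2 and 16.3 CPM in Ikbkb+/+. Every Ikbkb-/- library was below every control, and Tnfaip3 was 2.95-fold lower (log2 -1.56 ± 0.27, FDR = 0.000604). In adult microglia the values were 104, 63.1, 328 and 135 CPM in PS19 and 84.4, 46.6, 141 and 113 CPM in NTG. The PS19 mean rested on replicate 3, and the log2 fold change of 0.65 ± 0.44 (FDR = 0.711) was 0.0088 without that library. Replicate 3 also had the highest granulocyte and astrocyte marker sums of its group, 2559 and 1982 CPM.

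The Ikbkb-/- comparison of Tnfaip3 moved with other measures. Granulocyte markers summed to 409, 95.8, 42.2 and 12.1 CPM in the 4 Ikbkb+/+ libraries and 9.80 to 14.9 CPM in Ikbkb-/-, with 2 of the 6 markers called lower. Across the 4 Ikbkb+/+ libraries Tnfaip3 fell in the same order as these sums. Without Ikbkb+/+ replicate 1, which held 409 CPM of them, the log2 fold change of Tnfaip3 was -1.33 (FDR = 0.000876). Replicates 2 and 3 still held 95.8 and 42.2 CPM, and the part of granulocytes in the fall was not tested. Ddx3y was at 155 to 173 CPM in Ikbkb-/- and 35.0 to 69.4 CPM in Ikbkb+/+, so the sex make-up of the pups cannot be told apart from the genotype. With Ddx3y as a covariate the log2 fold change of Tnfaip3 was -3.35 ± 0.55 (FDR = 0.00144). Ddx3y did not overlap between the groups, so that fit cannot separate genotype from sex. Of the oligodendrocyte markers 6 of 7 were called higher in Ikbkb-/-, with sums of 588 to 717 CPM against 342 to 446 CPM. Markers of border-associated macrophages were lower in both Cre carriers, with 5 of the 5 tested called lower in Ikbkb-/- and 4 of 5 in IkbkbCA. Their sums were 422 to 741 CPM in Ikbkb-/- against 1510 to 1849 CPM in Ikbkb+/+, and 489 to 1034 CPM in IkbkbCA against 1393 to 1966 CPM in IkbkbWT. Their part in the results was not tested.

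Tnip1 (chr11:54910785-54962917, minus strand), which encodes ABIN-1, rose with tau fibrils and with the active kinase. The tau values were 90.0, 75.8, 97.0 and 86.3 CPM and the vehicle values 44.0, 45.9, 44.9 and 38.1 CPM. The groups were far apart relative to their spread, with a fold of 2.07 (log2 1.05 ± 0.15, FDR = 3.40e-06). In IkbkbCA it was at 125, 120, 174, 96.1 and 102 CPM, against 45.0, 38.8, 39.7, 39.7 and 39.0 CPM in IkbkbWT. Again no libraries overlapped, and the fold was 3.03 (log2 1.60 ± 0.15, FDR = 2.92e-05). It was not called in Ikbkb-/-, with 35.5, 39.6, 41.1 and 42.0 CPM in Ikbkb-/- and 39.1, 37.2, 35.0 and 39.7 CPM in Ikbkb+/+ (log2 0.09, 95% interval -0.12 to 0.30, FDR = 0.606). PS19 libraries had 29.8 to 50.4 CPM and NTG libraries 16.3 to 40.5 CPM (log2 0.38 ± 0.29, FDR = 0.740).

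Cyld (chr8:88697028-88751945, plus strand), the deubiquitinase that removes linear and lysine-63-linked chains, was not called in any comparison by edgeR with all libraries. Its IkbkbCA values of 59.8, 52.9, 56.9, 58.5 and 60.4 CPM lay just above the IkbkbWT values of 49, 52.0, 52.7, 41.8 and 48.2 CPM. The groups did not overlap (exact two-sided permutation test, p = 0.00794, the smallest that 5 against 5 allows), but the log2 fold change of 0.23 ± 0.08 had an FDR of 0.0883. It was called by DESeq2 (log2 0.26, FDR = 0.0460), and in the 4 libraries with neuron markers over 200 CPM (log2 0.42, FDR = 0.0184) but not in the 6 under it (log2 0.14, FDR = 0.574). With tau it was 0.35 ± 0.16 (FDR = 0.105) and without tau replicate 3 it was called, at 0.46 (FDR = 0.0462). In Ikbkb-/- it was 0.21 ± 0.10 (FDR = 0.164) and in PS19 -0.02, with an interval of -0.47 to 0.44.

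Tank (chr2:61578585-61654171, plus strand), the TRAF-associated NF-κB activator, showed its clearest rise with the active kinase. IkbkbCA libraries had 81.7, 71.3, 78.4, 71.2 and 78.6 CPM and IkbkbWT libraries 44.9, 34.9, 30.1, 34.0 and 32.0 CPM. The lowest IkbkbCA library was well above the highest control, with a fold of 2.15 (log2 1.11 ± 0.10, FDR = 3.18e-05). With tau fibrils the values were 30.0, 22.7, 34.8 and 38.6 CPM against 27.2, 17.7, 17.4 and 13.7 CPM. These groups overlapped by 1 library on each side, and Tank was called at a fold of 1.72 (log2 0.79 ± 0.23, FDR = 0.00973). In Ikbkb-/- the log2 fold change was -0.05 (interval -0.28 to 0.18, FDR = 0.840) and in PS19 -0.17 (interval -0.74 to 0.39, FDR = 0.893).

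Traf1 (chr2:34941750-34961772, minus strand), an adaptor that lacks the RING domain of its relatives, was the scarcest to detect, with under 3 counts in 9 of the 34 libraries. With tau fibrils it was at 6.54, 10.3, 4.76 and 7.71 CPM from 12 to 25 counts, and with vehicle at 3.80, 1.18, 2.18 and 2.54 CPM from 5 to 7 counts. The groups did not overlap (exact two-sided permutation test, p = 0.0286, the smallest that 4 against 4 allows), and the log2 ratio of the means was 1.60. Traf1 did not pass the filter there; without a filter edgeR gave a log2 fold change of 1.77 ± 0.49 (FDR = 0.00352). In IkbkbCA it was at 2.39, 1.36, 9.08, 1.82 and 2.49 CPM and in IkbkbWT at 0, 0.204, 2.84, 0.820 and 1.13 CPM. One library, IkbkbCA replicate 3, stood far above the rest, and the log2 fold change of 1.74 ± 0.76 (FDR = 0.163) was not called. That library also had the most Tnfaip3 and Tnip1 and the highest granulocyte marker sum of its group, 86.0 CPM against 17.4 to 34.1 CPM. Ikbkb-/- libraries held 0 to 2 counts and Ikbkb+/+ libraries 1 to 6 counts of Traf1, too few for a fold.

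Traf2 (chr2:25517982-25546940, minus strand), the adaptor of tumour necrosis factor receptors that recruits cIAP ligases, rose with tau and with the active kinase. Its tau values were 15.8, 13.6, 17.6 and 16.4 CPM and its vehicle values 5.98, 9.65, 5.66 and 8.63 CPM. The groups were apart, with a fold of 2.12 (log2 1.08 ± 0.28, FDR = 0.00386). In IkbkbCA it was at 25.5, 24.0, 18.5, 16.9 and 17.7 CPM and in IkbkbWT at 13.8, 14.1, 12.8, 14.9 and 12.9 CPM. That rise was smaller, 1.48-fold (log2 0.57 ± 0.14, FDR = 0.0168). In PS19 3 of 4 libraries were above every NTG library (log2 0.48 ± 0.27, FDR = 0.656), and in Ikbkb-/- the log2 fold change was -0.15 (interval -0.45 to 0.14, FDR = 0.539).

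Traf3 (chr12:111166370-111267153, plus strand), the adaptor that limits NIK and also serves interferon induction, rose with the active kinase and was not called with fibrils. IkbkbCA libraries had 48.9, 50.9, 56.7, 42.0 and 48.9 CPM and IkbkbWT libraries 24.4, 23.9, 25.5, 19.7 and 27.1 CPM. No libraries overlapped, and the fold was 2.03 (log2 1.02 ± 0.11, FDR = 7.35e-05). With tau the values were 45.3, 35.8, 39.9 and 55.9 CPM and with vehicle 55.4, 52.0, 37.9 and 30.5 CPM. These ranges almost coincide, with a log2 fold change of 0.04 and an interval of -0.36 to 0.44 (FDR = 0.908). PS19 libraries had 25.2, 21, 34.5 and 32.1 CPM and NTG libraries 22.3, 12.7, 16.2 and 21.7 CPM. Of the members it had the only unadjusted p under 0.05 in PS19 (log2 0.58 ± 0.26, FDR = 0.557), and 3 of 4 PS19 libraries were above every NTG library. The paper lists Traf3 among the genes upregulated in PS19 microglia at FDR under 0.05. Why its call differs from the one here was not tested. In Ikbkb-/- the log2 fold change was 0.05 (interval -0.21 to 0.31).

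Traf6 (chr2:101678429-101701669, plus strand), the ubiquitin ligase of the interleukin-1 and Toll-like receptor route, was the only member called lower with the active kinase. IkbkbCA libraries had 18.5, 15.5, 17.8, 18.3 and 16 CPM and IkbkbWT libraries 28.1, 24.9, 21.6, 21.8 and 26.5 CPM. All IkbkbCA libraries were below all controls, a 1.44-fold fall (log2 -0.52 ± 0.11, FDR = 0.00695). The log2 fold change was -0.02 with tau (interval -0.64 to 0.61), 0.05 in PS19 (interval -0.51 to 0.62) and -0.06 in Ikbkb-/- (interval -0.35 to 0.23), and none of these was called.

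**Figure D3:**
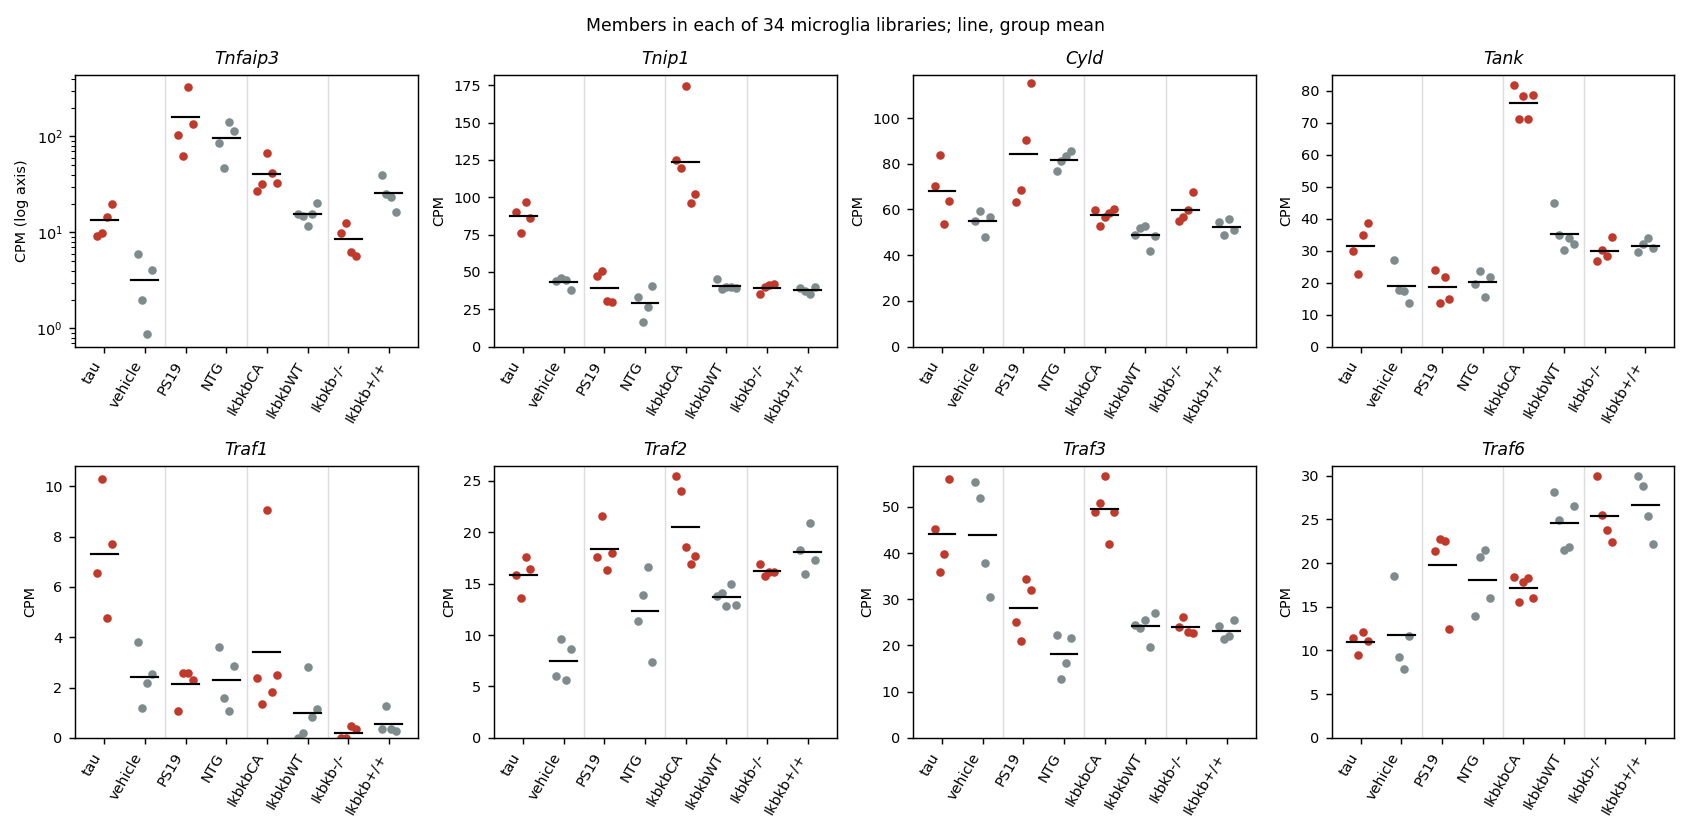
CPM of each member (y axis, log scale for Tnfaip3 only) in each of the 34 libraries by group, with red points for treated or mutant groups, grey points for their controls and black lines for group means. In IkbkbCA, Tnip1, Tank, Traf2, Traf3 and Tnfaip3 sit above every IkbkbWT library and Traf6 below, and Tnfaip3 is highest in the 2 adult groups.

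Across the 8 groups the members had different ranges. Mean Tnfaip3 ran from 3.22 ± 2.27 CPM (SD) with vehicle to 157.6 ± 117.4 CPM in PS19, a ratio of 48.9, and mean Cyld only from 48.8 ± 4.3 CPM in IkbkbWT to 84.4 ± 23.8 CPM in PS19, a ratio of 1.73. In order of their means, neighbouring groups overlapped in their libraries for Tnfaip3, Cyld, Traf1, Traf2, Traf3 and Traf6 at every step. For Tnip1 the step from tau (87.3 CPM) to vehicle (43.2 CPM) had no overlap, and for Tank the steps from IkbkbCA (76.2 CPM) to IkbkbWT (35.1 CPM) and from Ikbkb-/- (30.0 CPM) to NTG (20.1 CPM) had none. IkbkbCA had the highest mean of the 8 groups for Tnip1, Tank, Traf2 and Traf3. In the 8 adult libraries Tnfaip3 was at 46.6 to 328 CPM, with a median of 108 CPM, and in the 26 cultures at 0.871 to 67.4 CPM, with a median of 15.1 CPM. Cyld was at 63.2 to 115 CPM in adult libraries and 41.8 to 83.6 CPM in cultures. Age, culture, the digestion of the brain and other cells cannot be told apart in this difference, for which no test was designed. Granulocyte markers summed to 424 to 2559 CPM in PS19 and 1524 to 2123 CPM in NTG, and to at most 409 CPM in the cultures.

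The effects themselves were compared in joint fits of 4 groups. The IkbkbCA and Ikbkb-/- effects differed for 5 of 8 members, where 3.12% of all genes were called. The difference in log2 fold change was 2.94 ± 0.42 for Tnfaip3 (FDR = 0.000359), 1.53 ± 0.19 for Tnip1 (FDR = 7.99e-05), 1.18 ± 0.15 for Tank (FDR = 7.99e-05), 0.98 ± 0.15 for Traf3 (FDR = 0.000858) and 0.74 ± 0.19 for Traf2 (FDR = 0.0338). For Cyld it was 0.04, with an interval of -0.21 to 0.29, and for Traf6 -0.45 ± 0.17 (FDR = 0.202). Between tau fibrils and IkbkbCA 1 of 8 members differed, against 9.42% of all genes. It was Traf3, whose fibril effect was lower by a log2 difference of -1.05 ± 0.23 (FDR = 0.00645), while Tnip1 had a difference of -0.62 ± 0.20 (FDR = 0.0584). Between tau fibrils and PS19 0 of 8 members differed in edgeR, against 8.07% of all genes, and 3 had an unadjusted p under 0.05. Those 3 were Traf1, with a difference of 1.68 ± 0.73 (FDR = 0.175), Tnfaip3, with 1.51 ± 0.72 (FDR = 0.228), and Tank, with 0.86 ± 0.36 (FDR = 0.158), and one fit of all 34 libraries called Tank. DESeq2 and limma-voom called 0 of them.

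**Figure D4:**
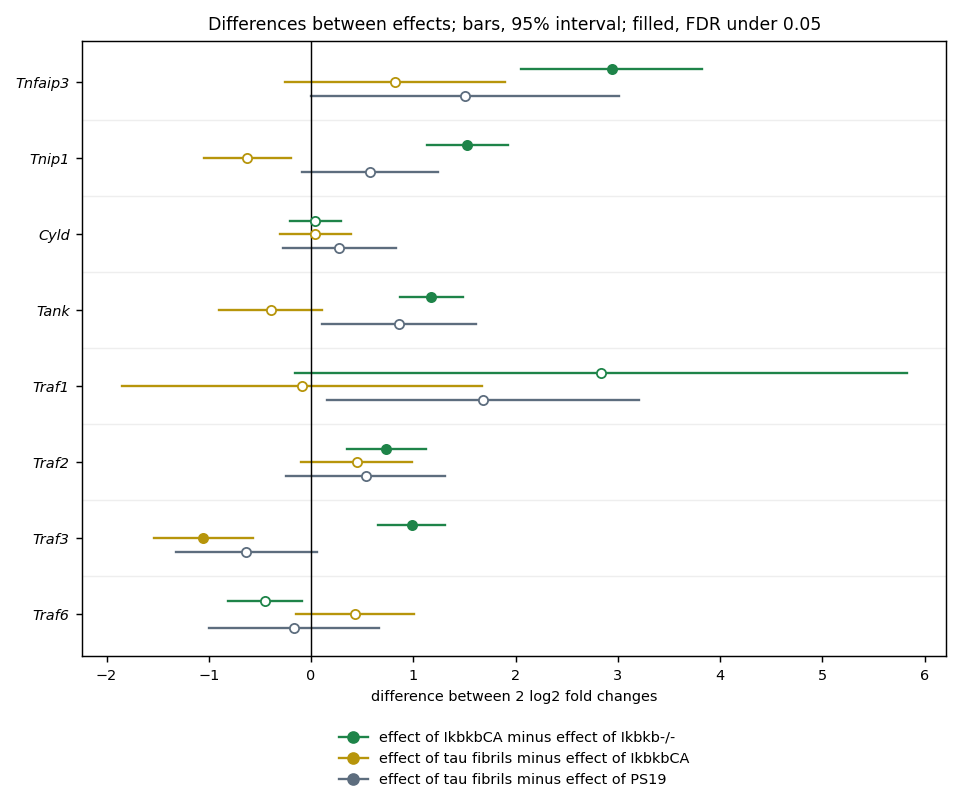
Differences between log2 fold changes (x axis) for the 8 members, with 95% intervals as bars and FDR under 0.05 as filled points. Tnfaip3, Tnip1, Tank, Traf3 and Traf2 differ between IkbkbCA and Ikbkb-/-, and Traf3 between tau fibrils and IkbkbCA.

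The wider pathway was followed with 79 further genes in 5 lists. With tau fibrils 21 of the 66 tested were called higher and 5 lower, or 31.8% and 7.58%, with a median log2 fold change of 0.37. Of all genes tested with tau 14.5% were called higher and 15.4% lower. As for the members, the microglia marker sum was higher and the astrocyte, oligodendrocyte and neuron marker sums were lower with tau, without overlap, and their part in these calls was not tested. Receptors that recruit TRAFs were led by Tnfrsf1b, the type 2 tumour necrosis factor receptor (log2 1.64 ± 0.16, FDR = 4.02e-09), with 4 of 8 tested higher and 0 lower. Adaptors and kinases had 4 of 19 higher and 0 lower, led by Myd88, the adaptor of Toll-like receptors (log2 1.94 ± 0.19, FDR = 3.94e-09). Of the ubiquitin ligases 4 of 12 were higher and 2 lower, from Birc3, which encodes cIAP2 and joins TRAF2 (log2 1.94 ± 0.27, FDR = 2.40e-06), to the Pellino gene Peli2 (log2 -0.78 ± 0.15, FDR = 0.000225). Other brakes had 4 of 17 higher and 2 lower, from Tnip3, which encodes ABIN-3 (3.56 ± 1.72 CPM with vehicle and 31.7 ± 2.1 CPM with tau, log2 3.25 ± 0.29, FDR = 7.39e-10), to Otud7a, a relative of A20 (log2 -1.34 ± 0.46, FDR = 0.0271). Vehicle libraries held at most 14 counts of Tnip3, which passed the filter on low counts through its tau libraries. Otud7a had at most 8 counts in tau libraries and passed that filter through its vehicle libraries. The size of each of these folds therefore rests on a group with few counts. Among the other TRAF genes 5 of 10 were higher and 1 lower, from Trafd1, a TRAF-type zinc finger inhibitor of Toll-like receptor signalling (log2 1.57 ± 0.17, FDR = 2.97e-08), to Traf4 (log2 -1.52 ± 0.29, FDR = 0.000247).

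In IkbkbCA 8 of 68 of these genes were called higher and 4 lower, with a median of -0.02. These shares, 11.8% and 5.88%, are not far from those over all genes, 7.31% and 7.16%. For the pathway genes the split was 10 and 2 with RLE scaling and 7 and 6 with total-count scaling. Tnip3 went from 0.896 ± 0.371 CPM, at most 7 counts, in IkbkbWT to 34.1 ± 28.8 CPM in IkbkbCA (log2 5.27 ± 0.57, FDR = 9.13e-05), and it was 1 of 2 brakes higher and 0 lower of 17. Tnip3 passed the filter on low counts only through the IkbkbCA libraries. The size of its fold therefore rests on a control near the limit of detection and on widely spread IkbkbCA libraries. Birc3 was the only one of 13 ligases called (log2 1.51 ± 0.12, FDR = 1.47e-05). Among adaptors and kinases 3 of 19 were higher and 2 lower, from Irak2 (log2 0.75 ± 0.13, FDR = 0.00228) to Irak1 (log2 -0.39 ± 0.11, FDR = 0.0283), both kinases of the interleukin-1 receptor route. Trafd1 rose (log2 0.83 ± 0.11, FDR = 0.000405) and Traf5 fell (log2 -0.69 ± 0.19, FDR = 0.0284) among the other TRAF genes, with 2 of 11 higher and 1 lower. The interleukin-17 receptor gene Il17ra was the only 1 of 8 receptors called, at a log2 fold change of -0.38 ± 0.11 (FDR = 0.0310).

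In Ikbkb-/- 6 of 66 were called higher and 1 lower, or 9.09% and 1.52%, with a median of 0.09. Of all genes 7.64% were called higher and 6.96% lower, so the share higher was near that over all genes. Trafd1 rose (log2 1.55 ± 0.11, FDR = 7.97e-09), as did Myd88 (log2 0.44 ± 0.09, FDR = 0.00261) and Nlrc3, an inhibitor that binds TRAF6 (log2 0.76 ± 0.16, FDR = 0.00312). The receptor gene Cd40 fell (log2 -1.09 ± 0.28, FDR = 0.0139). With Ddx3y as a covariate none of these 7 genes was called, and in one fit of all 34 libraries 2 pathway genes were. Ddx3y did not overlap between Ikbkb-/- and Ikbkb+/+, so the covariate fit cannot separate genotype from sex and decides nothing about these calls. Trafd1, Myd88, Irak2 and Otud5 were each called higher in all 3 culture comparisons, in Ikbkb-/- with the loss of those calls under the covariate. In PS19 0 of 67 were called by edgeR, DESeq2 or limma-voom, and their median was -0.08. By edgeR 0.0707% of all genes were called higher and 0% lower in PS19.

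Pattern likeness was measured over the 34 libraries as Pearson's r of log2 CPM after the mean of each experiment was subtracted, among 9366 or 9367 genes per member. The libraries share treatments and depth, so r is a description. Tnip1 was most like Relb, which encodes an NF-κB subunit (r = 0.94), and Tnfaip2 (r = 0.91). Tank was most like Gsap (r = 0.88) and Cflar, which encodes the caspase-8 inhibitor c-FLIP (r = 0.86). Tnfaip3 was most like Fos, the immediate-early gene (r = 0.83), and St3gal1 (r = 0.82). Traf2 came with Cyba (r = 0.82) and AB124611 (r = 0.80), and Traf3 with Tgif1 (r = 0.79) and Hif1a (r = 0.75). Lower values were found for Cyld, with Laptm4a (r = 0.76) and Stx7 (r = 0.75), for Traf1, with Osbpl3 and Slamf8 (both r = 0.75), and for Traf6, with Lpp (r = 0.65) and Tbc1d12 (r = 0.64).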

How the data were processed

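The authors aligned QuantSeq 3′ reads to the GENCODE GRCm38 genome with a BlueBee pipeline and deposited raw counts per Ensembl gene, 1 table per library. The paper names RSEM, but the tables hold whole numbers with 5 closing lines of uncounted reads, which were left out here; strand settings are not given in the sources used here. Depth was 1672052 to 8349128 counts per library, and limits from 3 counts cover counting error only. GENCODE M21 gave symbols for 47224 of 47643 identifiers. Each comparison used the libraries of its 2 groups in R 4.3.3 with edgeR 4.0.16 (TMM, filterByExpr with minimum count 10 and total 15, quasi-likelihood test, Benjamini-Hochberg FDR), and differences between effects used 4 groups. Log2 CPM used a prior count of 2. No source names separate animals or cultures for every library, so p-values measure the spread between these samples, which may be technical. Alternatives were RLE and total-count scaling, DESeq2 1.42.0, limma-voom (limma 3.58.1), other filters, one fit of all 34 libraries, covariates, leaving out each library and, chosen after seeing the data, a split of the IkbkbCA comparison by neuron markers. The fits were tested on simulated data with 200 changed genes. Named genes were the members, Ikbkb, Cx3cr1, the called gene with the highest and the lowest fold change per list and comparison, and the 2 most alike genes per member. Members and lists were chosen with earlier results of these data known.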

Additional observations from a re-analysis of the deposited data

Results flagged for a closer look

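In 4 of the 64 pairs of member and group examined, 1 library stood apart from the rest of its group, where chance flags about 1 in 20. Traf1 was at 9.08 CPM in IkbkbCA replicate 3, against 1.36 to 2.49 CPM in the other 4 libraries. Traf1 was at 1.25 CPM, from 6 counts, in Ikbkb+/+ replicate 2, against 0.266 to 0.365 CPM in the others. Traf6 was at 12.4 CPM in PS19 replicate 4, against 21.4 to 22.8 CPM. Tnip1 was at 45.0 CPM in IkbkbWT replicate 1, against 38.8 to 39.7 CPM.

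The IkbkbCA and Ikbkb-/- effects differed by a test of the difference for Tnfaip3 (log2 2.94), Tnip1 (1.53), Tank (1.18), Traf3 (0.98) and Traf2 (0.74). The effect of tau fibrils on Traf3 differed from that of IkbkbCA by -1.05. These experiments were separate cultures, and batch cannot be told apart from experiment.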

How the results depend on the processing

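No paired analysis was possible because the labels give the libraries no replicate numbers, and those used here only follow sample order. Of the members called, all stayed called under each alternative run for their comparison, except Traf6 in IkbkbCA in one fit of all 34 libraries (log2 -0.50, FDR = 0.0629) and Traf2 in the difference between IkbkbCA and Ikbkb-/- with limma-voom (FDR = 0.0553) and in that fit (FDR = 0.152), and except Traf2 and Traf6 in IkbkbCA within the 6 or the 4 libraries split by neuron markers. The filter of at least 10 counts in every library left out Tnfaip3 with tau. The fall of Tnfaip3 in Ikbkb-/- was -3.35 with Ddx3y as a covariate and -1.33 to -1.88 when 1 library was left out. The covariate fit of Ikbkb-/- cannot separate genotype from sex, so a call kept or lost in it decides nothing. Members that were not called and lay near 0 changed sign. With tau these were Traf3 (-0.11 with total-count scaling, and -0.088 to 0.16 when 1 library was left out) and Traf6 (0.11 with limma-voom, 0.0034 in the fit of all libraries, 0.010 with no filter, and -0.15 to 0.26). In PS19 they were Cyld (0.024 with total-count scaling, 0.021 in the fit of all libraries, 0.033 with no filter, and -0.21 to 0.10), Traf1 (0.083 with limma-voom, 0.22 with an age term, 0.11 with a term for reads that fell outside genes, and -0.19 to 0.27) and Traf6 (-0.028 with limma-voom, and -0.026 to 0.22). Ddx3y as a covariate gave 0.039 for Traf2 and 0.054 for Tank in Ikbkb-/-. Cyld in the difference between IkbkbCA and Ikbkb-/- was -0.0010 with total-count scaling, and Traf6 in that between tau and PS19 was 0.055 with limma-voom.

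Of all genes in PS19, 8 were called, and 98 with DESeq2, 4 with limma-voom, 375 in the fit of all libraries (1 of them a pathway gene), 166 with no filter, 0 with age as a covariate, and 4 to 54 when 1 library was left out, the highest without PS19 replicate 2 and the lowest without NTG replicate 1 or 2. In Ikbkb-/- the count of 1641 became 515 in the fit of all libraries and 291 with Ddx3y as a covariate, and the 7 pathway genes became 2 and 0. In IkbkbCA the 12 pathway genes became 7 with no filter and 7 to 11 when 1 library was left out, with 7 without IkbkbWT replicate 2 or IkbkbCA replicate 1. Within the 6 libraries of low neuron markers, a split chosen after seeing the data, 573 genes and 6 pathway genes were called. Members whose effects differed between tau and IkbkbCA went from 1 to 2, Traf3 and Tnip1, with total-count scaling and DESeq2, and between tau and PS19 from 0 to 1, Tank, in the fit of all libraries. The cause was not tested. Counts of 0 to 49 per library limit Traf1 throughout and Tnfaip3 with vehicle (2 to 11).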
